A study of Drosophila melanogaster with 4 samples.

Results

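The genes of chromosome 4, the smallest chromosome of Drosophila melanogaster, were compared between adult males of 4 Ago2 genotypes. They were taken by position alone: genes whose locus lies on chromosome 4, whose quantification was OK in the 4 genotypes, and whose mean FPKM over the genotypes was at least 1, with ATPsyn-beta left out. FPKM adjusts the count of sequenced fragments for transcript length and library size. This rule gave 73 genes of the 10872 that met the same status and expression criteria across the genome. The table listed 84 genes on the chromosome, and the 11 others were ATPsyn-beta, 5 whose quantification failed in at least 1 genotype and 5 below the minimum.

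Chromosome 4 carries its genes in a background of repeats and heterochromatin. Its chromatin holds the heterochromatin protein HP1a and depends on the histone methyltransferase encoded by egg. The protein encoded by Pof binds nascent transcripts of this chromosome and is known to raise their output. The chromosome therefore has a chromosome-wide mode of regulation of its own, known mainly from work on larval salivary glands and cultured cells.

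Ago2, on chromosome 3, encodes the fly Argonaute of RNA interference, which is guided by small interfering RNAs. Males carried the V966M allele or the 51B allele. The V966M homozygote was V966M/ V966M and its heterozygote V966M / TM3,twi-GFP,Sb,Ser. The 51B homozygote was 51B / 51B and its heterozygote 51B / TM3, Ser, y+. TM3 is a balancer of chromosome 3, so heterozygotes and homozygotes of a stock differ over that whole chromosome and not only at Ago2. The labels state no genotype for chromosome 4, and no group without an Ago2 mutant allele was used here. All males were 0 to 16 hr old and grown at 25 °C, and RNA came from whole males, so fewer cells of a type and less RNA per cell cannot be told apart.

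Each genotype entered with 1 value per gene, although the design text speaks of sequencing in duplicate. There was therefore no replicate error, no test and no p-value, and the deposited interval around each FPKM value served as the measure of precision. Depth in reads is unknown. The median half-width of that interval, over chromosome 4 genes with at least 5 FPKM, was 24.4% of the value for V966M heterozygotes and 16.0% for V966M homozygotes, and 14.9% and 27.3% for those of 51B. AGO2, the check of the labels, had 150.0 and 101 FPKM in the V966M heterozygote and homozygote, and 46.5 and 6.33 FPKM in those of 51B. Male markers were high: 4 testis genes summed to between 1045 and 1805 FPKM, and 4 accessory gland genes to between 346 and 638 FPKM. Of 8 female yolk, vitelline membrane and chorion genes, 6 were below 0.5 FPKM in every genotype, and Yp3 and Cp15 had 4.68 to 10.9 FPKM.

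To remove overall shifts, log2(FPKM + 1) was median centred: each genotype was shifted so that the median deviation of all 10872 genes from their own 4-genotype means was 0. A change is the difference of centred values, and the added 1 FPKM makes changes of low genes look smaller than they are. A gene counted as called where its change was at least 2-fold and the deposited intervals of both genotypes, shifted in the same way, lay apart. A milder call required 1.5-fold and intervals apart.

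Expression of chromosome 4 was shifted as a block, in the order V966M heterozygote, then V966M homozygote and 51B heterozygote together, then 51B homozygote. The median deviation of the 73 genes from their own means was 0.39 on the log2 scale for V966M heterozygotes and 0.01 for V966M homozygotes, and 0.00 and -0.41 for those of 51B. The interquartile ranges were 0.26 to 0.50, -0.03 to 0.08, -0.04 to 0.06 and -0.52 to -0.32 in the same order. Those of the outer genotypes did not overlap those of the middle pair. These ranges are a spread over genes and not the precision of a single gene. The V966M homozygote and the 51B heterozygote differed by a median of 0.02, with 40 genes above 0 and 33 below. As a share of all FPKM of the analysed genes, the 73 genes made up 0.391%, 0.307%, 0.327% and 0.207%.

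**Figure D1:**
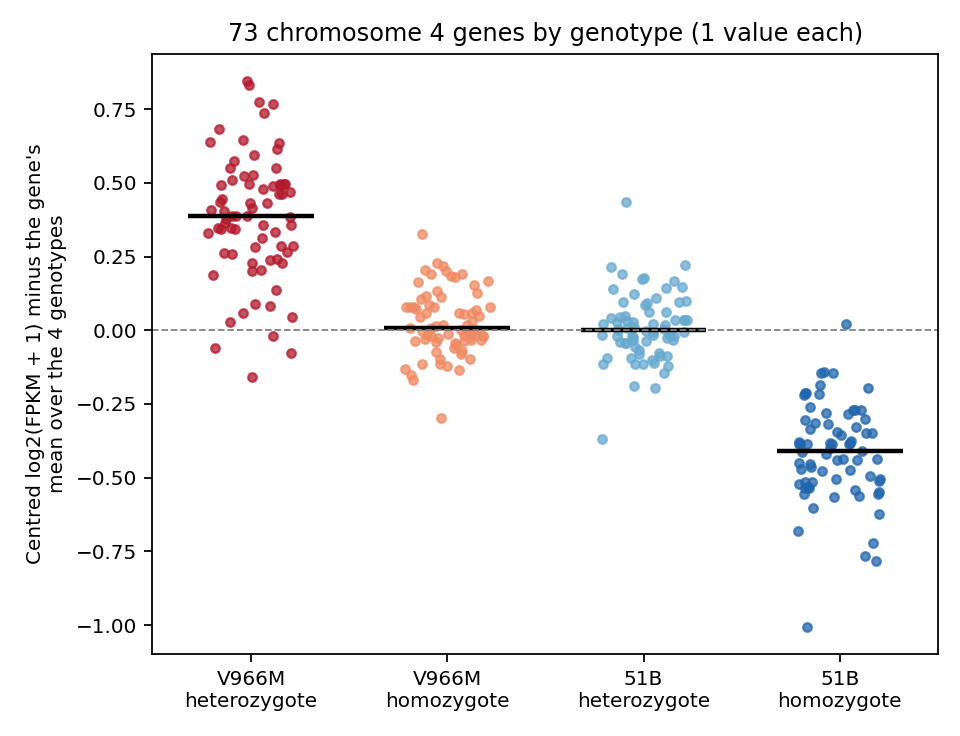
Each point is 1 of the 73 chromosome 4 genes, and the y axis is its centred log2(FPKM + 1) minus its mean over the 4 genotypes on the x axis. Black bars are medians, at 0.39, 0.01, 0.00 and -0.41 from left to right.

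The V966M heterozygote had the highest centred value and the 51B homozygote the lowest in 62 of the 73 genes, or 84.9%, against 18.4% of all analysed genes. Taken alone, the 51B homozygote was lowest in 71 genes, or 97.3%, against 34.9% of all analysed genes. The 11 genes outside this order were JYalpha, CG32006, CG2052, lgs, pncr013:4, ey, Sox102F, CG32021, CG11093, CG11077 and CG41130.

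Each homozygote was then compared with the heterozygote of its own stock. These differ in the Ago2 copies that carry the allele and in the TM3 balancer of chromosome 3, which cannot be told apart. In V966M the median change of the 73 genes was -0.40, which is 1.32-fold lower in the homozygote, beside -0.01 over all analysed genes. The change was below 0 in 66 genes (90.4%), against 51.6% of all genes. Deposited intervals lay apart in 23 genes, all lower in the homozygote, or 31.5%, against 1.32% of all genes lower with intervals apart. By the milder rule 9 genes were lower and 0 higher, where 0.552% of all genes were lower and 0.294% higher. By the 2-fold rule 0 chromosome 4 genes were called, where 0.175% of all genes were.

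In 51B the median change was -0.41, 1.33-fold lower in the homozygote, beside -0.04 over all genes. The change was below 0 in 72 genes (98.6%), against 54.4% of all genes, with Sox102F as the exception at 0.00. Intervals lay apart in 21 genes, all lower in the homozygote, or 28.8%, against 6.87% of all genes lower with intervals apart. By the milder rule 9 genes were lower and 0 higher, where 5.05% of all genes were lower and 2.76% higher. The 2-fold rule called Rfabg alone, as lower, where 1.49% of all genes were lower.

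The shift was modest for each gene and shared across the chromosome. In V966M the interquartile range of the changes was -0.51 to -0.19 on chromosome 4 and -0.12 to 0.10 over all genes. In 51B it was -0.52 to -0.31 and -0.26 to 0.19. Both alleles together had 65 genes below 0 in each homozygote, where 33.1% of all analysed genes were below 0 in both. The within-allele comparisons share no values, and across the 73 genes their changes had a Spearman's rho of 0.24. These genes share their libraries and are not independent replicates. Whether the shift differed between alleles could not be tested.

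The same values compared between stocks place V966M above 51B at either zygosity. Between heterozygotes the median change was 0.40 (1.32-fold higher in V966M), with 65 genes above 0, or 89.0% against 52.1% of all genes. The milder rule gave 13 genes higher and 0 lower, where 4.29% of all genes were higher and 5.97% lower. Between homozygotes the median was 0.43 (1.35-fold higher in V966M), with 72 genes above 0, or 98.6% against 49.0%. The milder rule gave 15 higher and 0 lower, where 8.11% of all genes were higher and 5.36% lower. By the 2-fold rule 1 gene was higher in each comparison, CG1732 between heterozygotes and Rfabg between homozygotes, where 1.25% and 3.37% of all genes were higher. These comparisons reuse the values of the within-allele comparisons and are not separate evidence.

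The large chromosome arms showed no shift of this size. Medians over 2L, 2R, 3L, 3R and X lay between -0.03 and 0.01 in V966M, between -0.08 and 0.05 in 51B, between 0.00 and 0.03 between heterozygotes and between -0.05 and -0.00 between homozygotes. Genes on the pericentric scaffolds of the other chromosomes, which are also heterochromatic, were shifted in the same directions. Their 49 analysed genes had medians of -0.22 in V966M, -0.40 in 51B, 0.27 between heterozygotes and 0.41 between homozygotes. The order of genotypes found on chromosome 4 was seen in 35 of these 49 genes, or 71.4%. The 51B homozygote was lowest in 41 of the 49, or 83.7%. With 1 value per genotype these differences between chromosomes were described and not tested, and no shift is called particular to chromosome 4.

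**Figure D2:**
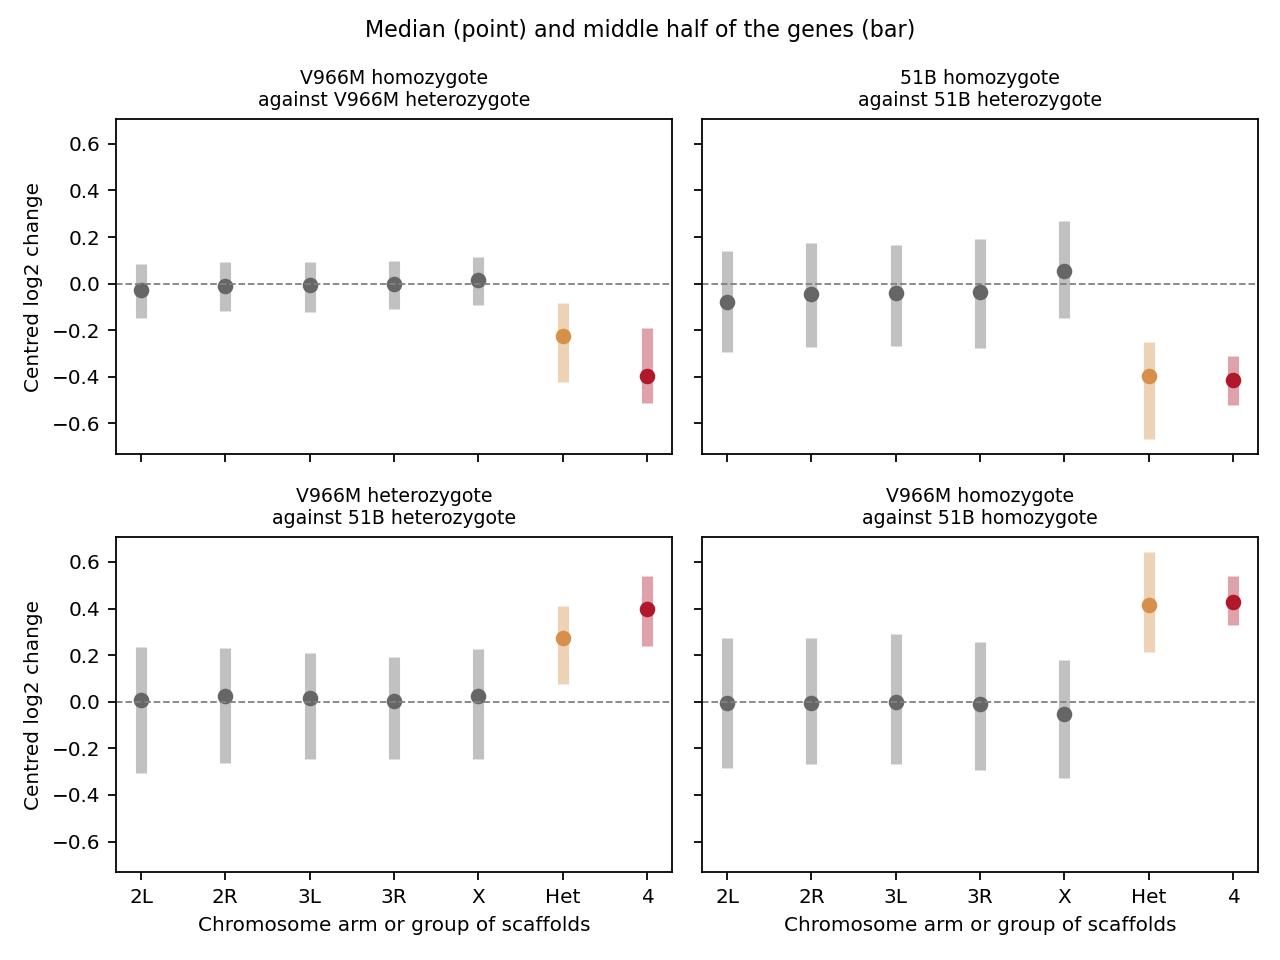
Centred log2 change (y axis) by chromosome arm, pericentric scaffolds (Het) and chromosome 4 (x axis) in the 4 comparisons; points are medians over genes and bars are interquartile ranges. The arms lie near 0, and chromosome 4 and the Het scaffolds are below 0 in both homozygotes and above 0 in V966M against 51B.

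Marker sums as deposited and single marker genes were set beside the shift, and their part in it was not tested. The summed FPKM of the 4 accessory gland markers, as deposited, was 638 and 483 in V966M heterozygotes and homozygotes, and 471 and 346 in those of 51B. After centring, the changes of the 3 with OK quantification in V966M were -0.39 for Acp26Aa, -0.22 for Acp70A and 0.02 for Acp62F, those in 51B were -0.68, -0.61 and -0.44, and the V966M heterozygote lay above the 51B heterozygote by 0.07, 0.09 and 0.09, beside a median of 0.40 on chromosome 4. The male dosage compensation RNA roX1 had 113, 60.5, 66.0 and 51.8 FPKM in that order, and its partner roX2 had 11.7, 8.87, 8.39 and 8.86 FPKM. The 4 testis markers had sums of 1276, 1045, 1660 and 1805 FPKM. Interval widths were largest in the outer genotypes, and with 1 value per genotype the precision of a library and its genotype cannot be told apart.

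Chromosome 4 genes also have long loci, with a median length of 9.31 kb against 3.39 kb over all analysed genes, while their median mean level of 9.94 FPKM lay close to the 11.3 FPKM of all genes. Among genes of 2L, 2R, 3L, 3R and X with a locus of their own, those with loci of 5 to 10 kb had median changes of -0.01 in V966M and 0.07 in 51B, and those of 10 to 20 kb had -0.00 and 0.06. Chromosome 4 genes with loci of 5 to 10 kb had -0.44 and -0.42, and those of 10 to 20 kb had -0.48 and -0.37. Between heterozygotes the other arms moved in the direction of chromosome 4, with medians of 0.11 for loci of 5 to 10 kb and 0.15 for 10 to 20 kb, beside 0.40 and 0.51 on chromosome 4. Between homozygotes the medians were -0.01 and 0.07 on the other arms, beside 0.43 and 0.44 on chromosome 4. The part of locus length in the shift was not tested. Within chromosome 4, genes of low level had smaller shifts in V966M, with a median of -0.19 for 19 genes under 5 FPKM, -0.47 for 36 genes from 5 to 20 FPKM and -0.39 for 18 genes above. In 51B the medians were -0.34, -0.40 and -0.53. Adding 1 FPKM before taking logarithms compresses the changes of low genes, and its part in these medians by level was not tested.

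Position along the chromosome was examined from JYalpha, whose locus starts at base 24053 in dm3, to Caps, whose locus ends at base 1275487, a span of 1.25 Mb. The change had a Spearman's rho with locus start of 0.04 in V966M and 0.16 in 51B over the 73 genes. Cut into 3 runs, the first 25 genes from JYalpha to Hcf had a median of -0.45 in V966M and -0.48 in 51B. The next 24 genes, from CG2052 to eIF4G, had -0.21 and -0.38. The last 24, from mGluRA to Caps, had -0.43 and -0.42. In V966M the middle run thus lay closer to 0, and it holds CG2052, lgs, gw, ey and Sox102F, which were among the genes nearest 0. Between the change of a gene and that of the next gene along the chromosome, rho was -0.02 in V966M and 0.05 in 51B over 72 pairs.

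**Figure D3:**
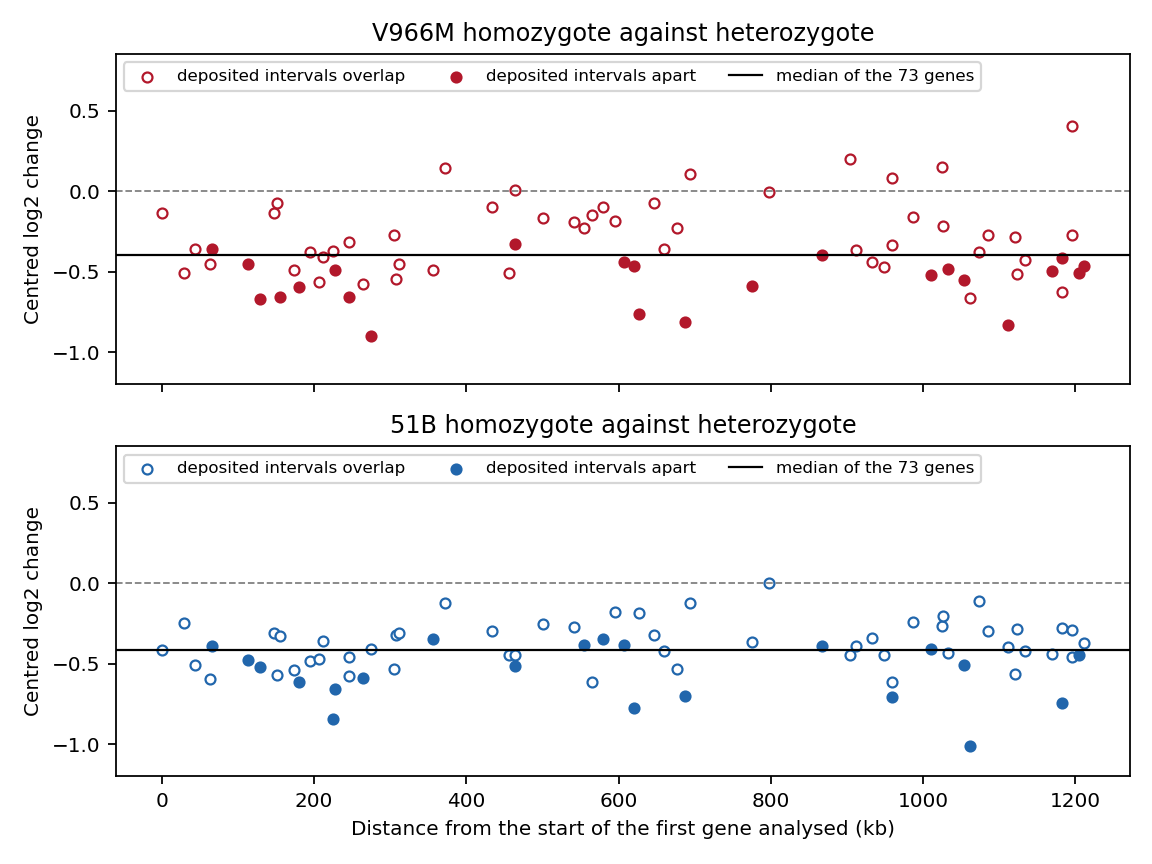
Centred log2 change of the 73 genes (y axis) against distance from the start of JYalpha (x axis, kb), for V966M above and 51B below. Filled points have deposited intervals apart after centring, and black lines are the medians of -0.40 and -0.41; 66 and 72 of the 73 points lie below 0, along the whole span.

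In the accounts below, values are FPKM as deposited, with V966M before 51B and the heterozygote before the homozygote of each, and changes are centred log2 values of the homozygote against the heterozygote, V966M first. Deposited intervals can lie apart and still overlap after centring. By the milder rule 24 of the 73 genes were called in at least 1 of the 4 comparisons, 9 in 1 of them, 9 in 2, 5 in 3 and 1, myoglianin, in all 4. Of all analysed genes the same rule called, in either direction, 0.846% in V966M and 7.81% in 51B. It called 10.3% between heterozygotes and 13.5% between homozygotes. The share of all genes called in at least 1 comparison was not computed, so the 24 cannot be read against it. The role lists held 51 of the 73 genes.

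Chromosome 4 holds 3 genes for secreted ligands of the TGF-beta family, which signal through activin-type or BMP-type receptors. Of these, myoglianin, the fly relative of the vertebrate growth inhibitors myostatin and GDF11, had 23.3 FPKM (20.5 to 26.2), 10.7 (9.48 to 12.0), 10.8 (9.50 to 12.2) and 6.85 (5.62 to 8.08). It was high in the V966M heterozygote and low in the 51B homozygote, with the middle pair alike, and its changes were -0.81 and -0.70, called by the milder rule in both alleles. The ligand gene mav had 11.9 FPKM (9.82 to 14.1), 6.92 (5.93 to 7.92), 7.09 (6.24 to 7.95) and 4.11 (3.23 to 4.99). Its change of -0.77 in 51B was called, and its change of -0.47 in V966M fell short of 1.5-fold with intervals apart. Actbeta, an activin ligand with low values, had 2.63, 1.36, 1.25 and 1.25 FPKM and changes of -0.38 and -0.11 with overlapping intervals. The list's medians were -0.47 and -0.70.

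Transcription factors and coactivators, many of them developmental regulators, had medians smaller in size than those of the chromosome. Several of them, such as ci, ey, toy, sv, zfh2 and onecut, had mean levels under 5 FPKM, where the added 1 FPKM compresses changes. The part of low level in these smaller medians was not tested. Of 17 listed, 16 were analysed, with medians of -0.23 in V966M and -0.32 in 51B. In V966M 13 were below 0 and 1 was called lower, and in 51B 15 were below 0 and 2 were called lower. The single V966M call was MED26, a subunit of the Mediator coactivator, with 14.9 FPKM (11.1 to 18.6), 7.92 (6.65 to 9.19), 8.44 (7.06 to 9.81) and 6.90 (4.91 to 8.90) and a change of -0.59. In 51B the calls were NfI, of the nuclear factor I family, and CG11093, named fuss in Release 6, a Ski/Sno family gene. NfI had 11.4, 6.06, 6.33 and 4.26 FPKM and changes of -0.57 and -0.59. CG11093 had 2.10, 1.77, 1.68 and 0.776 FPKM and shares its locus with the noncoding RNA gene sphinx, so its value depends on how fragments were divided.

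The Hedgehog effector ci and the Wingless effector pan followed the chromosome. For ci the values were 6.999 FPKM (5.12 to 8.88), 4.28 (3.49 to 5.08), 3.99 (3.27 to 4.70) and 2.78 (1.87 to 3.70), with changes of -0.36 and -0.51 that were not called. By the milder rule ci was called higher in V966M than in 51B between homozygotes, at 0.59. For pan the values were 20.2 FPKM (19.0 to 21.3), 12.9 (12.0 to 13.9), 13.4 (12.6 to 14.2) and 10.9 (10.4 to 11.4). Its intervals were narrow and lay apart in both alleles, at changes of -0.36 and -0.39. The Polycomb recruiter pho had 9.17, 5.10, 6.05 and 4.61 FPKM and changes of -0.50 and -0.44. In contrast lgs, the adaptor that links pan's partner Armadillo to the transcription machinery, had 20.9, 16.3, 17.8 and 15.5 FPKM and changes of -0.10 and -0.30.

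Other genes of the transcription factor list were not called in either allele. The Pax6 gene ey had 2.16 FPKM (1.70 to 2.61), 1.87 (1.56 to 2.18), 1.58 (1.24 to 1.93) and 1.56 (1.04 to 2.08), with changes of 0.10 and -0.12, and its paralogue toy had 4.40, 3.09, 2.75 and 2.43 FPKM with changes of -0.16 and -0.24. Sox102F had 12.8 FPKM (10.2 to 15.3), 10.6 (9.01 to 12.2), 7.83 (6.66 to 8.99) and 8.55 (6.16 to 10.9). Its changes were -0.01 and 0.00, and it was 0.40 higher in the V966M than in the 51B heterozygote with overlapping intervals. CG2052, a zinc finger gene named dati in Release 6, had 6.31, 5.83, 4.46 and 4.40 FPKM and changes of 0.14 and -0.12. The Pax gene sv, the homeobox genes zfh2 and onecut, and Mitf, of the family of the vertebrate melanocyte factor MITF, had changes of -0.27 and -0.30, -0.17 and -0.25, -0.19 and -0.18, and -0.27 and -0.46. The deposited intervals of these genes overlapped within each allele after centring.

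**Figure D4:**
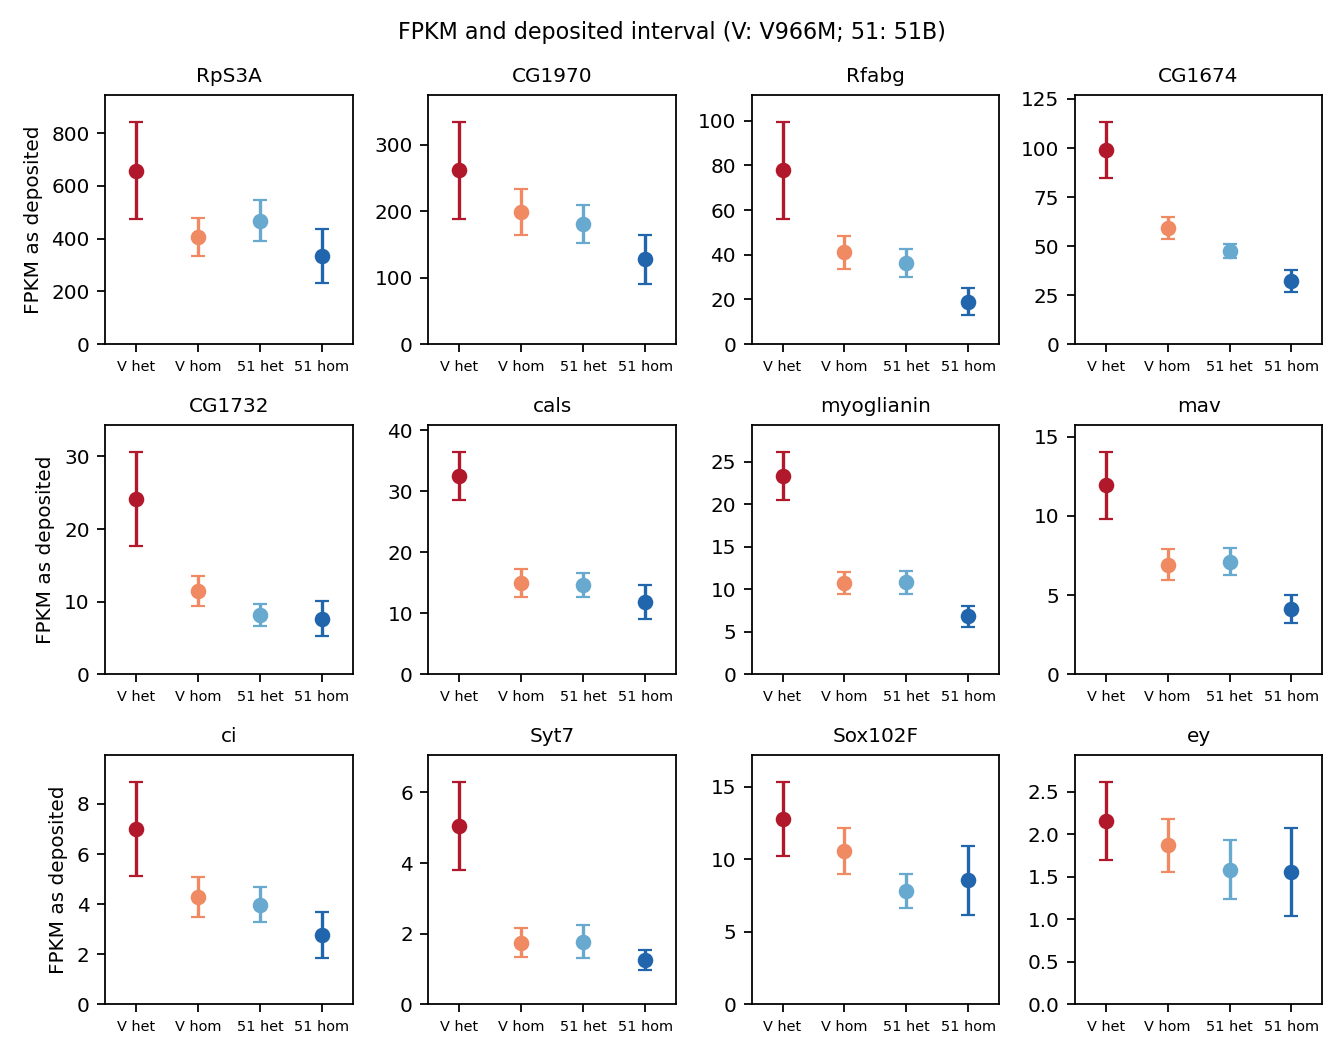
FPKM as deposited (y axis, from 0) of 12 chromosome 4 genes in the 4 genotypes (x axis), with the deposited interval as the bar. Apart from Sox102F, whose lowest value is that of the 51B heterozygote, the V966M heterozygote is highest and the 51B homozygote lowest in each panel.

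Guidance and adhesion genes were below 0 in both alleles in all 6 of the analysed members of a list of 7, with medians of -0.51 and -0.40. The largest change was that of cals, the calsyntenin gene, a cadherin-like protein of neurons. It had 32.6 FPKM (28.6 to 36.5), 14.9 (12.6 to 17.2), 14.6 (12.7 to 16.6) and 11.8 (9.03 to 14.6), with a called change of -0.83 in V966M and one of -0.39 in 51B that was not called. The semaphorin receptor gene plexA had 20.1 FPKM (17.6 to 22.6), 11.4 (10.4 to 12.5), 13.02 (12.3 to 13.7) and 10.4 (9.24 to 11.5), and its intervals lay apart in both alleles at -0.52 and -0.41. The other plexin gene, plexB, had 8.90, 4.88, 4.68 and 4.17 FPKM and changes of -0.51 and -0.25. Eph, the receptor of ephrin, had 15.3, 9.16, 9.37 and 7.56 FPKM and changes of -0.44 and -0.39, also with intervals apart. Crk, an adaptor of receptor tyrosine kinases, and dpr7, an immunoglobulin-domain gene, had changes of -0.56 and -0.47, and of -0.32 and -0.58, with overlapping intervals.

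Synaptic and neuronal genes were all below 0 as well, 7 of 7 analysed from a list of 9, with medians of -0.47 and -0.37. CG1732, named Gat in Release 6, encodes a GABA transporter. It had 24.1 FPKM (17.6 to 30.6), 11.5 (9.47 to 13.6), 8.15 (6.68 to 9.63) and 7.68 (5.28 to 10.1). Its change was -0.76 in V966M, called, and -0.19 in 51B, and it was 1.21 higher in the V966M than in the 51B heterozygote. Syt7, a synaptotagmin gene of calcium-triggered exocytosis, had 5.05 FPKM (3.81 to 6.30), 1.75 (1.34 to 2.16), 1.77 (1.30 to 2.25) and 1.26 (0.985 to 1.53). Its change of -0.90 in V966M was the lowest of the 73 genes, and its change in 51B was -0.41 with overlapping intervals.

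The vesicle priming gene unc-13 had the most precise values of this list: 16.7 FPKM (16.0 to 17.5), 10.4 (9.94 to 10.9), 10.1 (9.68 to 10.5) and 8.11 (7.94 to 8.28). Its changes of -0.40 and -0.39 were those of the chromosome, with intervals apart in each allele. Caps, named Cadps in Release 6 and needed for dense-core vesicle release, had 14.9, 8.71, 7.99 and 6.49 FPKM and changes of -0.47 and -0.37. The glutamate receptor genes mGluRA and CG11155 had changes of -0.44 and -0.34, and of -0.52 and -0.29. Slip1 had -0.36 and -0.42, and none of these genes was called within an allele. By the milder rule CG11155 was called higher in the V966M than in the 51B heterozygote, at 0.59. CaMKII, a calcium-dependent kinase gene of synapses outside the list, had 48.0, 28.7, 28.9 and 22.9 FPKM and changes of -0.48 and -0.43.

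Among genes of RNA and translation, all 5 analysed were below 0 in both alleles and 0 were called, with medians of -0.37 and -0.39. RpS3A, a protein of the small ribosomal subunit and the most abundant of the 73 transcripts, lies from base 86745 to 87863 in dm3. It had 658 FPKM (473 to 843), 406 (336 to 477), 468 (391 to 545) and 334 (234 to 435). Its changes of -0.45 and -0.59 had overlapping intervals. On other chromosomes, 82 genes were taken by their RpL or RpS names, with medians of -0.13 in V966M and 0.14 in 51B. These include paralogues such as RpS28a and genes named as like a ribosomal protein gene, such as RpL24-like and RpL7-like. RpS3A was below 79 of the 82 in V966M and below 81 in 51B. Between homozygotes RpS3A was 0.39 higher in V966M, above 81 of the 82, whose median was -0.18, and between heterozygotes its 0.25 lay above 61 of them. The ribosomal set was chosen after values had been seen, and its comparison with RpS3A is a description.

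**Figure D5:**
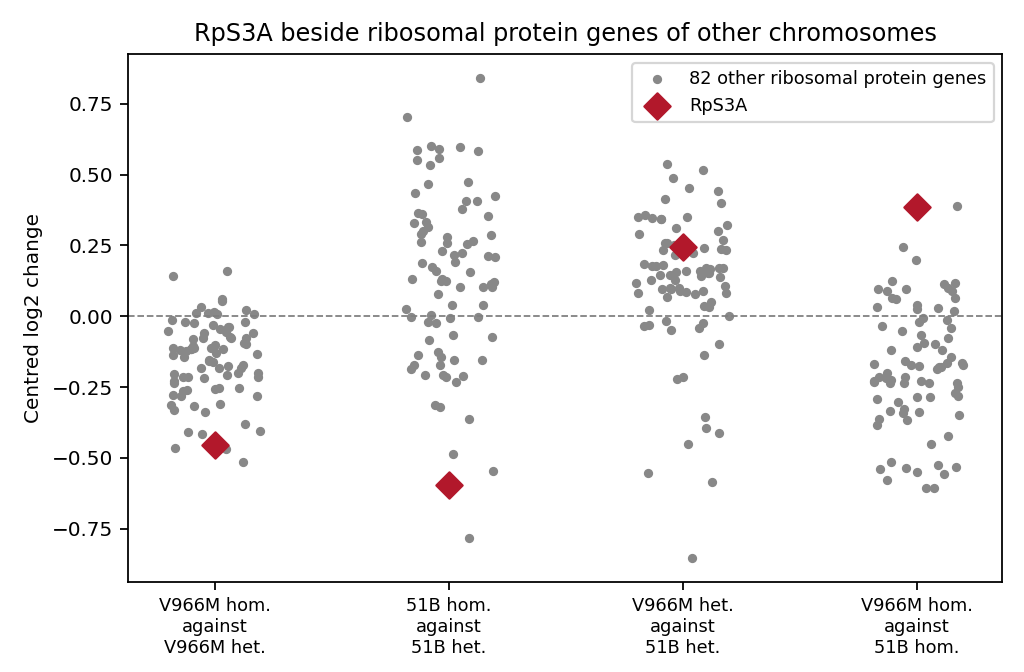
Centred log2 change (y axis) of RpS3A, the ribosomal protein gene of chromosome 4 (diamond), and of 82 genes with RpL or RpS names on other chromosomes (grey points) in the 4 comparisons (x axis). RpS3A is near the lower edge of the others in both homozygote against heterozygote comparisons, at -0.45 and -0.59, and near the upper edge between homozygotes, at 0.39.

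The gene gw encodes the GW182 protein that acts with AGO1 in microRNA silencing. It had 65.3 FPKM (52.9 to 77.7), 52.4 (44.9 to 59.9), 48.4 (41.9 to 54.8) and 41.5 (30.2 to 52.9), and changes of -0.07 and -0.32. It therefore lay above the chromosome's median in V966M. The translation initiation scaffold gene eIF4G had 59.6, 38.8, 32.6 and 26.7 FPKM, with changes of -0.37 and -0.39. It was called higher in V966M than in 51B between heterozygotes at 0.61 and between homozygotes at 0.63. CG32016, named 4E-T in Release 6 and a partner of the cap-binding protein, had changes of -0.47 and -0.45, and the nucleic-acid binding gene Pur-alpha had -0.23 and -0.38.

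The list of membrane traffic, metabolism and DNA repair held 12 analysed genes, all below 0 in both alleles, with medians of -0.43 and -0.54. By the milder rule 2 were called lower in V966M and 3 in 51B. Rfabg, the gene of apolipophorin, the main lipid carrier protein of the haemolymph, lies from base 1085538 to 1096830. It had 77.8 FPKM (56.1 to 99.6), 41.0 (33.7 to 48.4), 36.5 (30.2 to 42.8) and 19.1 (13.1 to 25.1). Its change of -1.01 in 51B, 2.02-fold lower, was the lowest of the 73 genes there, and its change in V966M was -0.67 with intervals that overlapped after centring. It is a fat body gene, and its excess over the chromosome's median was not tested.

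CG32000, named anne in Release 6, had 34.3 FPKM (30.6 to 38.0), 17.8 (16.3 to 19.3), 17.6 (16.0 to 19.2) and 13.02 (10.8 to 15.3). It was called in V966M at -0.67, and its intervals lay apart in 51B at -0.52.

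CG1970, named ND-49 in Release 6 and a subunit of mitochondrial complex I, was the second most abundant of the 73. It had 262 FPKM (189 to 335), 199 (165 to 234), 181 (152 to 210.0) and 127 (90.6 to 164), changes of -0.15 and -0.61, and a called difference of 0.75 between homozygotes. The yellow family gene yellow-h had 7.33, 4.45, 5.26 and 2.76 FPKM and was called lower in 51B at -0.85, with -0.37 in V966M. JYalpha, a sodium pump subunit gene needed in males for fertility, went against the chromosome between stocks. It had 2.33 FPKM (1.24 to 3.43), 1.56 (0.915 to 2.21), 3.24 (2.16 to 4.32) and 2.44 (1.29 to 3.59), and its difference between heterozygotes was -0.59 with overlapping intervals.

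Among other members of this list that were not called in either allele, the small GTPase genes CG2219 (Arl4 in Release 6) and Arf102F had changes of -0.49 and -0.54, and of -0.29 and -0.57. The zinc transporter gene CG2177 had -0.55 and -0.32, and the phosphoinositide kinase gene CG17471 (PIP4K) had -0.63 and -0.28. The repair genes Rad23 and Thd1 had -0.27 and -0.53, and -0.19 and -0.27.

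Of 4 muscle and cytoskeleton genes 2 were analysed. Ank, the ankyrin gene that links membrane proteins to spectrin, had 52.8 FPKM (46.1 to 59.4), 32.2 (28.9 to 35.5), 29.3 (26.1 to 32.5) and 22.5 (18.1 to 27.0). Zyx102EF, the zyxin gene of focal adhesions, had 10.3, 5.51, 5.94 and 4.26 FPKM. Intervals lay apart for both genes in each allele, with changes of -0.45 and -0.48 for Ank and -0.55 and -0.51 for Zyx102EF. By the milder rule Ank was called higher in V966M than in 51B between homozygotes, at 0.60.

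Outside the role lists, 22 genes remained. CG1674 had 99.0 FPKM (84.5 to 113), 59.1 (53.6 to 64.7), 47.7 (44.0 to 51.3) and 32.3 (26.8 to 37.9), and it was called lower in 51B at -0.66. The 4 values descended with no overlap of the deposited intervals. CG33521, which shares its locus with CG17471, did the same, with 43.5 FPKM (40.7 to 46.4), 27.3 (25.1 to 29.5), 22.9 (21.4 to 24.4) and 14.4 (13.2 to 15.6), and was called in 51B at -0.74. In V966M, CG33978 and RhoGAP102A were called at -0.66 each. RhoGAP102A shares its locus with dpr7.

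Of the kinase genes, Dyrk3 was chosen after its values were seen. By the milder rule Asator was called higher in V966M than in 51B between homozygotes, at 0.65. Dyrk3 had 12.4 FPKM (10.9 to 13.8), 6.94 (6.22 to 7.67), 6.88 (6.14 to 7.62) and 5.25 (4.40 to 6.10), and Asator, a tau tubulin kinase gene, had 16.1, 10.5, 9.41 and 6.87 FPKM. Their changes were -0.51 and -0.45, and -0.33 and -0.51, with intervals apart in each allele. The noncoding sphinx RNA, known for a part in male courtship, had 29.3, 19.3, 23.7 and 16.4 FPKM and changes of -0.34 and -0.61 with overlapping intervals. CG31997 and CG31999 were called only between stocks, CG31999 between heterozygotes at 0.76 and both between homozygotes, at 0.74 for CG31997 and 0.71 for CG31999.

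The 10 chromosome 4 genes that missed the criteria, other than ATPsyn-beta, fell into 2 sets. The quantification of 5 had failed in at least 1 genotype, and their listed values are given as deposited, without centring. The projectin gene bt, of the muscle sarcomere, was listed at 96.8, 71.4, 61.4 and 41.0 FPKM, and the calcium pump gene PMCA at 133, 79.4, 68.9 and 58.4 FPKM. CaMKI was listed at 51.7, 30.0, 25.7 and 24.9 FPKM, CG11148 at 31.2, 20.3, 21.1 and 15.5, and Ephrin at 14.9, 9.64, 9.15 and 8.19. The V966M heterozygote was listed highest and the 51B homozygote lowest in all 5, as deposited. On that scale all analysed genes had median changes of -0.25 in V966M and 0.07 in 51B. Between heterozygotes their median was 0.26, and between homozygotes -0.11. These failed and uncentred values are no support for the centred shift. The other 5, CG9935, fd102C, Kif3C, CG11231 and CG33797, were under 1 FPKM. Nearest to the minimum were CG9935 at 0.755 and fd102C at 0.684 FPKM below it, and pncr013:4 at 1.32 and CG32017 at 1.47 FPKM above it.

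Genes elsewhere that encode regulators of chromosome 4 and of heterochromatin had medians near 0. Of 14 listed, 13 were analysed, with medians of -0.01 in V966M, -0.03 in 51B, 0.03 between heterozygotes and 0.06 between homozygotes. By the milder rule 0 were called in either allele and 1, Pof, between stocks. Pof had 123, 95.9, 158 and 153 FPKM. It was lower in the V966M than in the 51B heterozygote at -0.61, called, and lower at -0.57 between homozygotes, while its changes within alleles were -0.12 and -0.16. The differences of Pof had the sign of the chromosome 4 medians within alleles and the opposite sign between stocks. Any part of Pof RNA in the shift was not tested. The methyltransferase gene egg had 5.68, 5.15, 4.46 and 5.18 FPKM and changes of 0.12 and 0.07, and the gene of HP1a had 14.7, 11.6, 12.0 and 10.5 FPKM and changes of -0.08 and -0.29.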

How the data were processed

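The deposited table holds 1 FPKM value, its lower and upper bound and a quantification status per gene and genotype for 13990 genes, per the file headers. TopHat and Cufflinks with genome build dm3 were used, per the submitters' processing notes. Tool versions, the annotation, strand use, the interval's level and how duplicates were combined were not given in the sources used here. Without read counts, depth is unknown and no count test was possible. Loci are in dm3 with starts converted to count from 1: among 6668 genes alone at their locus, 1180 had their Release 6 length with a deposited start counted from 0 and 109 counted from 1. RefSeq's Release 6 table served only for names and matched 72 of the 73 genes.

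Centring, changes and calls were computed with Python 3.11.15, numpy 2.4.6, pandas 2.3.3 and SciPy 1.17.1 and checked on simulated data. Genes named are those called by either rule, the 5 highest and lowest changes per allele, the 5 with the highest mean, the neighbours of the FPKM minimum, and the role lists; kinase and noncoding genes outside these were chosen after their values were seen. 1 called gene is not reported here. The genes, lists and rules were chosen with earlier results of these data known. Base composition was not measured here.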

Additional observations from a re-analysis of the deposited data

Results flagged for a closer look

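The homozygote's centred log2 change had opposite signs in V966M and 51B in 8 of the 73 genes, and with 1 value per genotype this difference was not tested. The V966M change minus the 51B change was 0.79 for CG11093, 0.70 for CG41130, 0.65 for CG32021, 0.45 for pncr013:4, 0.42 for CG11077, 0.27 for CG2052, 0.23 for ey and -0.010 for Sox102F. By the milder rule the change of CG11093 in 51B, at -0.70, was called and the others were not. CG11093, CG41130 and pncr013:4 share their loci with other genes.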

How the results depend on the processing

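The direction of the median change of chromosome 4 genes held in the 4 comparisons under the 8 alternatives run. Of 144 recomputed values 121 stayed close to those reported (within 0.1 for medians and correlations, 10 percentage points for shares, 1.5 times for counts) and 23 did not. With FPKM as deposited the medians were -0.64 in V966M, -0.30 in 51B, 0.64 between heterozygotes and 0.32 between homozygotes, beside -0.25, 0.07, 0.26 and -0.11 over all genes; members minus all genes came to -0.39, -0.38, 0.38 and 0.44. On that scale 4 genes were called at 2-fold in V966M, 0 in 51B and 8 between heterozygotes, and 39 in V966M, 40 between heterozygotes and 7 between homozygotes at 1.5-fold. A pseudocount of 5 FPKM gave medians of -0.27 in 51B and 0.28 between homozygotes, 0 genes at 2-fold in 51B and between heterozygotes, and 2 in 51B and 5 between homozygotes at 1.5-fold. A pseudocount of 0.1 FPKM gave 1 gene at 2-fold in V966M and 3 in each other comparison. With a mean of at least 5 FPKM, 4 of 54 genes were called at 1.5-fold in V966M and 2 at 2-fold between homozygotes, and with no minimum 0 at 2-fold in 51B. The share of all genes called under these alternatives was not computed, so these counts of called genes cannot be read against it. The cause of these moves was not tested beyond the scale itself. No paired analysis was possible because each genotype has 1 value. Precision is limited by the wide intervals of the V966M heterozygote and 51B homozygote.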
